A study of Homo sapiens with 24 samples.

Results

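CD180 and LY86 encode the subunits of the RP105 complex on B cells, and they were followed across the 8 conditions of an RNA-seq study of Nalm6, an established human B-cell precursor acute lymphoblastic leukemia (B-ALL) line. The members were the rows of the count table whose RefSeq accession belongs to either gene. These were 1 row for CD180 (NM_005582) and 1 row for LY86 (NM_004271), that is 2 of the 27389 genes in the table, and both were among the 10167 transcripts that passed the filter on low counts (over 1 CPM in at least 2 libraries). The genes were chosen on measured values: CD180 was known to be lower with dexamethasone (dex) and higher with shGLP in both treatments. The dex comparisons, the shGLP comparisons and the interactions built from them are therefore given below for both genes as a description, without a test.

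All 24 libraries came from Nalm6 cells transduced with lentivirus and selected as resistant populations in puromycin, not as single clones. The cells expressed shRNA against a nonspecific sequence (shNS, the control), G9a (EHMT2), GLP (EHMT1) or HP1γ (CBX3), and each population was kept for 8 h in 100 nM dex, a synthetic glucocorticoid, or in the same volume of its vehicle ethanol. G9a and GLP are lysine methyltransferases that act as coregulators of the glucocorticoid receptor (GR), and HP1γ binds their methylated forms. Each of the 8 conditions had 3 biological replicates made on different days, and 1 shRNA per gene is named in the labels, so an effect of a depletion and an effect of its particular shRNA cannot be told apart.

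CD180 (RP105) is a cell-surface protein of B cells and other antigen-presenting cells. Its extracellular leucine-rich repeats resemble those of the Toll-like receptor TLR4, but it lacks the intracellular TIR domain through which TLRs signal. LY86 (MD-1) is the small secreted protein that binds CD180 and is needed for its display on the surface, as LY96 (MD-2) does for TLR4. Antibodies against CD180 activate B cells through Lyn and other kinases of the B-cell receptor pathway, and the complex also tunes the response to TLR ligands.

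On build GRCh37, CD180 lies on the minus strand at chr5:66475441-66492627, and its canonical GENCODE transcript has 3 exons and 5388 bases. LY86 lies on the plus strand at chr6:6588341-6655216, with a canonical transcript of 5 exons and 859 bases. The 250 bases just before the start of each canonical transcript are shown. Glucocorticoid response and methyltransferase depletion are the variables of the study, and CpG content and receptor motifs can be read in these bases. LY86 has 2 annotated transcripts and its gene begins farther upstream, so its window describes the canonical start only. The sequences are those of RefSeq (GRCh38.p14), were found once each on the same chromosome of GRCh37 at chr5:66492628-66492877 (minus strand) and chr6:6588703-6588952 (plus strand), and overlap no annotated exon. Capitals mark CpG and, in LY86, the PU box core GAGGAA, the letters recognised by PU.1 and related Ets factors.
CD180: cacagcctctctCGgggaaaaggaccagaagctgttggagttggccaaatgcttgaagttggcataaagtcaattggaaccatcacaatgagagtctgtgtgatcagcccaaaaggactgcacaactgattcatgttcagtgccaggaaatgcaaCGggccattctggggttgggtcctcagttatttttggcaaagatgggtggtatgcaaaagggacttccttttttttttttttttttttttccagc
LY86: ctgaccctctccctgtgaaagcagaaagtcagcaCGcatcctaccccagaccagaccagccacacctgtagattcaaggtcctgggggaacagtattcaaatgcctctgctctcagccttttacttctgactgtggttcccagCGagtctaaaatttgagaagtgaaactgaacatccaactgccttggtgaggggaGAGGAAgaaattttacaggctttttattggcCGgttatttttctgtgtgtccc
Both windows were poor in CpG, with 2 in CD180 and 3 in LY86 against a median of 11 over the 35116 RefSeq windows of this length. Their GC contents were 44.8% and 48.4%, against a median of 58%. On either strand, neither window held the palindromic GR element (AGAACA and TGTTCT 3 bases apart) or the single GR hexamer TGTTCT, which occurred in 0.00285% and 12.4% of all windows. The PU box core occurred once in LY86, 53 bases before the start, not in the CD180 window, and in 23.6% of all windows. A match or its absence describes these letters only and says nothing about binding.

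Libraries held 9289533 to 14387770 counts (median 11132064.5). Levels are given in CPM, counts divided by the library's counts on tested transcripts times 1000000 and scaled per library by upper-quartile factors. CD180 had 296 to 999 counts per library (median 430) and a higher mean level than 70.7% of the tested transcripts. LY86 had 138 to 293 counts (median 197.5), above 61.5%. Of 10 tested transcripts of 7 known GR target genes, 9 rose with dex in shNS cells, where 9.88% of all transcripts were called in either direction. Among them were FKBP5 (NM_001145777, log2 fold change 1.75, adjusted p = 2.18e-09, edgeR) and TSC22D3 (NM_004089, 3.47, adjusted p = 6.58e-13). DUSP1 was not called (-0.06, adjusted p = 0.826, edgeR). The mRNAs of the depleted genes were a weak check in this table: EHMT1 was counted at 4.08 ± 0.459 CPM in shNS and 2.62 ± 0.837 CPM in shGLP with ethanol (SD, n = 3; log2 fold change -0.65, adjusted p = 0.0978, edgeR), neither CBX3 row was called in shHP1γ, and EHMT2 was not analysed here. The paper reports, from immunoblot and RT-qPCR on the cells used for RNA-seq, that each target was efficiently depleted as protein and as mRNA. Genes with 2 or more accessions reached the filter less often. In the pathway lists described below these were 9 of 36, against 17 of 20 genes with 1 accession. Over all genes with a count the gap was smaller, at 40.7% against 53.1%. The list genes were not limited to those with a count and include genes at 0 in every library, so the gaps have unlike bases. The cause of the gap was not tested. CD180 and LY86 have 1 accession each. Of the B-cell precursor markers, RAG1, VPREB3, IGLL1 and CD79A were detected, IGLL1 and CD79A with 2 accessions each. PAX5 and EBF1, with 13 and 10 accessions, reached at most 6 and 7 counts in any row and library.

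CD180 was the more variable of the pair. In shNS cells with ethanol it stood at 56.0, 45.8 and 44.4 CPM in replicates 1, 2 and 3, and with dex at 32.8, 28.4 and 24.01 CPM. All 3 dex libraries lay below all 3 ethanol libraries. In shG9a cells the ethanol libraries gave 40.02, 36.8 and 35.0 CPM and the dex libraries 31.4, 33.5 and 26.3 CPM. These groups also did not overlap, and the distance between their means was smaller than in shNS. In shHP1γ cells the values were 44.4, 37.7 and 34.9 CPM with ethanol and 36.7, 33.8 and 27.9 CPM with dex, which overlapped. In shGLP cells CD180 reached 103, 91.7 and 85.8 CPM with ethanol and 92.0, 87.7 and 68.1 CPM with dex. Every shGLP library was above every library of the other 3 populations, whatever the treatment.

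Ordered by mean, CD180 ran from shNS dex (28.4 ± 4.38 CPM, SD, n = 3 here and for each mean that follows) through shG9a dex (30.4 ± 3.67), shHP1γ dex (32.8 ± 4.48), shG9a ethanol (37.3 ± 2.54) and shHP1γ ethanol (39.0 ± 4.92) to shNS ethanol (48.7 ± 6.36), then shGLP dex (82.6 ± 12.7) and shGLP ethanol (93.4 ± 8.54). The single gap between neighbours was that between shNS ethanol and shGLP dex. All other neighbours overlapped in their libraries.

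LY86 moved over a narrower range. Its mean was 17.9 ± 1.103 CPM in shNS ethanol and 17.8 ± 2.40 in shNS dex, and the shG9a and shHP1γ conditions lay between 16.2 ± 2.29 (shG9a ethanol) and 17.1 ± 2.29 CPM (shG9a dex). These 6 conditions could not be ordered, since each overlapped its neighbours. The shGLP cells stood apart, at 29.9, 27.1 and 27.6 CPM with ethanol and 26.0, 23.7 and 22.5 CPM with dex. The lowest shGLP library was above the highest library of the other populations, 20.7 CPM in shHP1γ dex replicate 1, and the ethanol and dex groups of shGLP did not overlap each other.

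**Figure D1:**
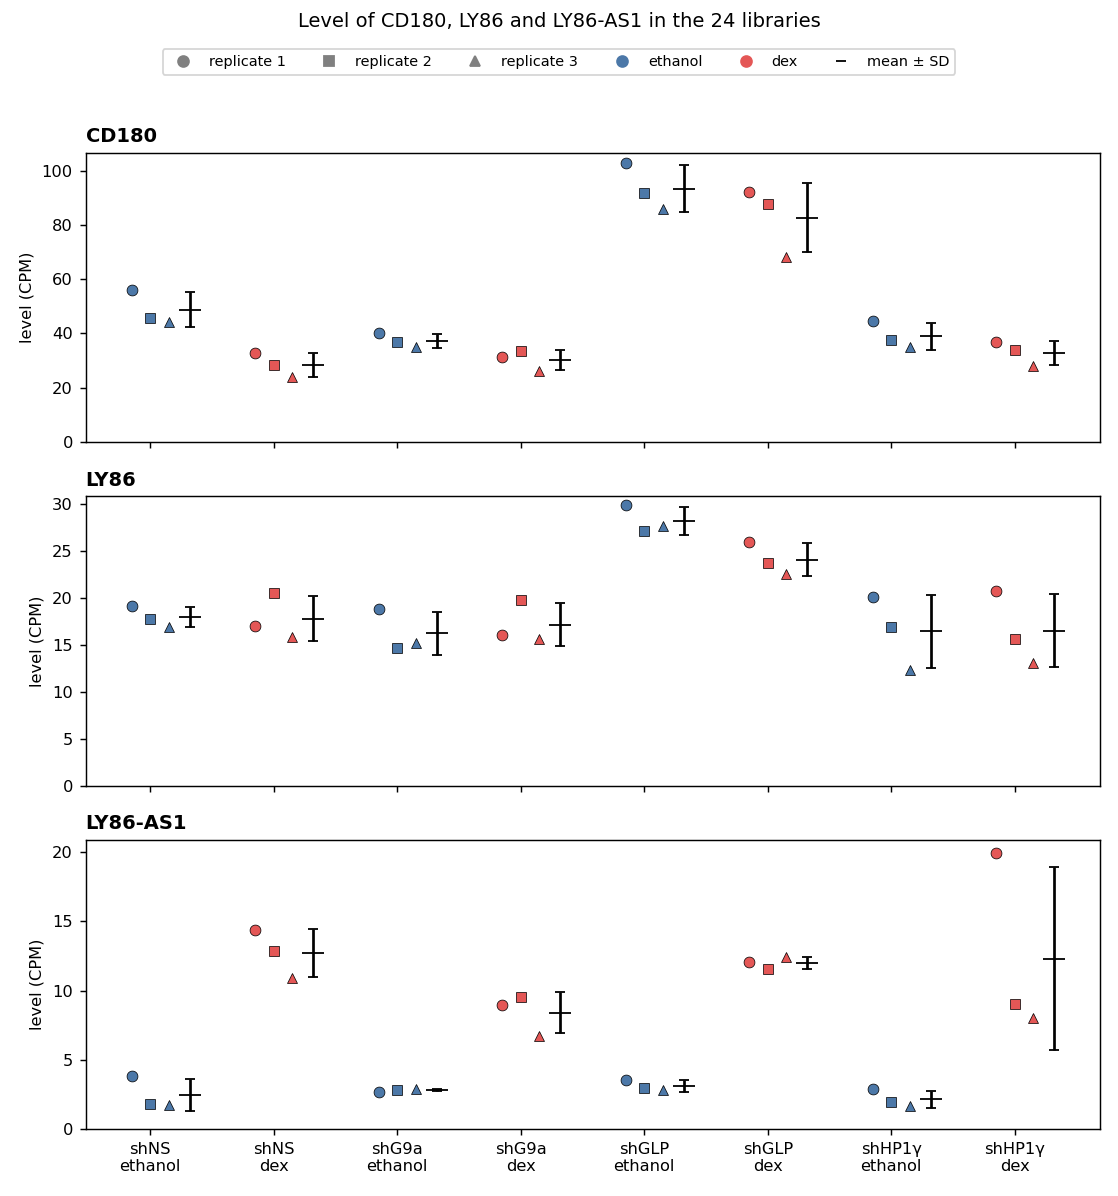
Level (CPM, vertical axis from 0) of CD180, LY86 and the antisense transcript LY86-AS1 in each of the 24 libraries, by shRNA population and treatment (ethanol blue, dex red); symbols are replicates 1 to 3 and black bars the mean ± SD. CD180 and LY86 are highest in shGLP cells, where CD180 lies at 68.1 to 103 CPM, while LY86-AS1 separates dex from ethanol in all 4 populations.

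Per kilobase of canonical transcript the order of the genes was the other way round, with LY86 at 20.9 and CD180 at 9.04 CPM per kilobase in shNS ethanol. The ratio of CD180 to LY86 per kilobase was 0.433 in shNS ethanol and 0.255 in shNS dex. It was 0.367 and 0.283 in shG9a, 0.379 and 0.317 in shHP1γ, and 0.528 and 0.547 in shGLP with ethanol and dex. The ratio was thus lower with dex in 3 populations and not in shGLP. These ratios use GENCODE lengths, whereas the RefSeq release behind the counts is not given in the sources used here.

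The question behind the dex comparison was how the coregulators alter the response to glucocorticoid. Fitted over all libraries with the replicate as a block, CD180 was lower with dex by 0.78 on the log2 scale in shNS (fitted log2 fold change -0.78, SE 0.08), 58.3% of its ethanol mean. The fitted differences were -0.30 in shG9a (SE 0.08), -0.25 in shHP1γ (SE 0.08) and -0.18 in shGLP (SE 0.07), and CD180 was lower with dex in 3 of 3 replicates in each population. In shNS 164 of the 10167 transcripts had a more negative dex difference, a rank that describes the choice of CD180 and is no support for it. LY86 showed no such common direction: its fitted dex differences were -0.01 in shNS (SE 0.13), 0.09 in shG9a (SE 0.13), 0.01 in shHP1γ (SE 0.13) and -0.23 in shGLP (SE 0.12), and only in shGLP did 3 of 3 replicates fall on the same side. Bulk RNA cannot tell less RNA per cell from fewer cells of a kind.

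The dex difference in each depleted population minus that in shNS, the interaction of dex with the shRNA, is built from the differences that chose the gene and is given without a test. Its intervals do not allow for that choice and cannot serve as a test. For CD180 its sizes on the log2 scale were 0.60 for shGLP (SE 0.11, 95% interval 0.38 to 0.82), 0.53 for shHP1γ (SE 0.11, 0.31 to 0.76) and 0.49 for shG9a (SE 0.11, 0.26 to 0.71). All were positive in 3 of 3 replicates, that is, the fitted dex difference was nearer 0 in depleted cells, and all share the shNS libraries. For LY86 the interactions were 0.10 for shG9a (95% interval -0.28 to 0.48), -0.22 for shGLP (-0.59 to 0.15) and 0.02 for shHP1γ (-0.36 to 0.40).

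The levels in depleted and control cells were then compared within each treatment. The shG9a and shHP1γ comparisons, which are tested, use the shNS libraries that also entered the choice of CD180. Their p values do not allow for that choice. A high shNS ethanol level favours both a lower value with dex and a lower value with a depletion in ethanol. It works against the shGLP difference in ethanol, which also entered the choice. CD180 fell with shG9a in ethanol (log2 fold change -0.38, SE 0.08, adjusted p = 0.0033, edgeR, lower in 3 of 3 replicates), where 3.7% of all transcripts were called. With dex it did not pass the test (0.11, SE 0.08, 95% interval -0.06 to 0.27, adjusted p = 0.461, higher in 2 of 3 replicates), against 8.69% of transcripts called. With shHP1γ in ethanol CD180 also fell (-0.32, SE 0.08, adjusted p = 0.017, lower in 3 of 3 replicates), against 2.78% called. In dex the fitted value was 0.21 (SE 0.08, 95% interval 0.05 to 0.37, adjusted p = 0.159, higher in 3 of 3 replicates), against 4.21% called. Both ethanol calls were lost without the replicate block (adjusted p = 0.239 for shG9a and 0.401 for shHP1γ). The shG9a call was also lost without replicate 1 or 3 (adjusted p = 0.0907 and 0.122), and the shHP1γ call without replicate 1, 2 or 3 (0.149, 0.0688 and 0.299) and with only the groups compared in the fit (0.12).

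LY86 passed the test in none of these comparisons in edgeR. Its fitted differences were -0.15 with shG9a in ethanol (95% interval -0.42 to 0.12), -0.05 in dex (-0.32 to 0.22), -0.14 with shHP1γ in ethanol (-0.42 to 0.13) and -0.12 in dex (-0.39 to 0.15), with adjusted p = 0.685, 0.871, 0.711 and 0.757. None had an unadjusted p below 0.05, and none passed in DESeq2.

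With shGLP, CD180 was higher than in shNS by 0.94 on the log2 scale in ethanol (SE 0.07) and by 1.54 in dex (SE 0.08), or 1.92-fold and 2.91-fold, in 3 of 3 replicates each. LY86 was higher by 0.65 (SE 0.13) in ethanol and by 0.43 (SE 0.13) in dex, also in 3 of 3 replicates. These differences chose CD180 and stand as values. Of all 10167 fitted differences for shGLP, 143 were higher than that of CD180 in ethanol and 45 in dex, and 358 and 940 were higher than that of LY86. All comparisons with shNS within a treatment use the same 3 control libraries.

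**Figure D2:**
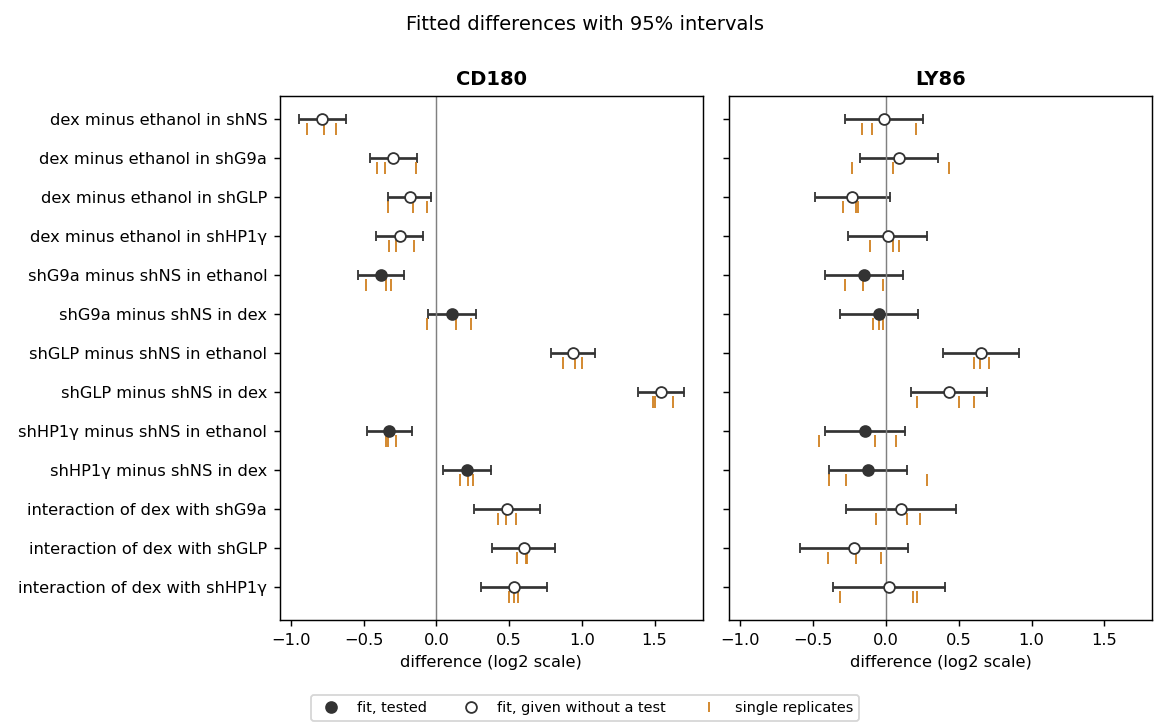
Fitted differences (log2 scale, horizontal axis) of CD180 and LY86 with 95% intervals for the 13 comparisons; filled points were tested, open points belong to, or are built from, the comparisons that chose the genes, and orange ticks are single replicates. The CD180 values for shGLP (0.94 and 1.54) lie farthest to the right, and the 3 interactions lie at 0.49 to 0.60 for CD180 and at -0.22 to 0.10 for LY86. Intervals of open points do not allow for the choice of the genes, nor do those of the filled CD180 points, which share its shNS libraries.

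Markers of other cell types were read beside the shGLP values. The summed level of the 12 monocyte and myeloid markers was 4.51 to 8.25 CPM in shNS ethanol and 26.8 to 34.4 CPM in shGLP ethanol, and 3.07 to 3.61 against 21.1 to 30.5 CPM with dex. LYZ, lysozyme, made up 25.8 ± 4.68 CPM of it in shGLP ethanol and rose with shGLP in ethanol (log2 fold change 2.71, SE 0.34, adjusted p = 5.94e-05, edgeR) and in dex (3.22, SE 0.36, adjusted p = 1.44e-05). MPO, the other tested marker, was not called in either (adjusted p = 0.0585 and 0.22). CD33 reached at most 9 counts in a library, CD14 4 and ITGAX 2, and S100A8, S100A9, CSF1R, CD163, ITGAM, ELANE and FCGR3A were at 0 in every library. Of 11 T and NK cell markers 1 was tested, NKG7, not called with shGLP (adjusted p = 0.155 and 0.4998), and the list summed to 13.1 to 16.1 CPM in shGLP and 8.75 to 15.4 CPM in shNS. The 8 erythroid and platelet markers summed to at most 4.01 CPM in any library. The B-precursor list summed to 2826 to 3179 CPM in shGLP and 1857 to 2296 CPM in shNS. It was also high in shG9a, at 2550 to 3259 CPM with ethanol and 2394 to 2573 CPM with dex. Such a sum follows the genes with the most counts. Over the 9 tested transcripts of this list the median log2 fold change with shG9a was -0.10 in ethanol and -0.48 in dex. Over all transcripts it was -0.02 and 0.003. With shGLP the list medians were 0.22 and 0.42, against 0.01 and 0.03 over all transcripts. RAG1, with up to 3.272e+04 counts in a library, rose with shGLP (0.56 and 0.68 in ethanol and dex, adjusted p = 0.00395 and 0.000418, edgeR). With shG9a RAG1 rose too (0.58 and 0.42, adjusted p = 0.00377 and 0.0209, edgeR). The part of these marker differences in the shGLP levels of CD180 and LY86 was not tested.

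The transcripts whose levels followed CD180 most closely were found by the Pearson correlation of log2 CPM over the 24 libraries after the replicate means were removed. They were KLRF2 (0.962), a lectin-like receptor gene, MPEG1 (0.959), which encodes perforin-2, KCNA6 (0.931), a potassium channel gene, IRF8 (0.912), a transcription factor of B cells and myeloid cells, and MYO1G (0.89), a myosin of hematopoietic cells. KLRF2 was the one with the most similar shape, with means of 9.87 ± 0.379 CPM in shNS ethanol, 6.34 ± 0.148 in shNS dex, 18.9 ± 1.65 in shGLP ethanol and 14.5 ± 1.93 in shGLP dex. IRF8 was high in shGLP (25.2 ± 2.87 and 22.1 ± 0.827 CPM with ethanol and dex) and lower elsewhere, at 10.4 ± 1.88 and 9.66 ± 1.24 CPM in shNS. MPEG1 had at most 38 counts in a library, and in shNS dex at most 3.

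The closest transcripts to LY86 were DRAM1 (0.904), which encodes a lysosomal membrane protein, KCNA6 (0.897), SMIM24 (0.838), LYZ (0.837) and CD180 itself (0.836). Libraries of 1 population share its transduced cells, and the shGLP libraries stand apart. Over the 18 libraries without shGLP, CD180 and LY86 had a correlation of 0.10, and the other transcripts were not recomputed without them.

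**Figure D3:**
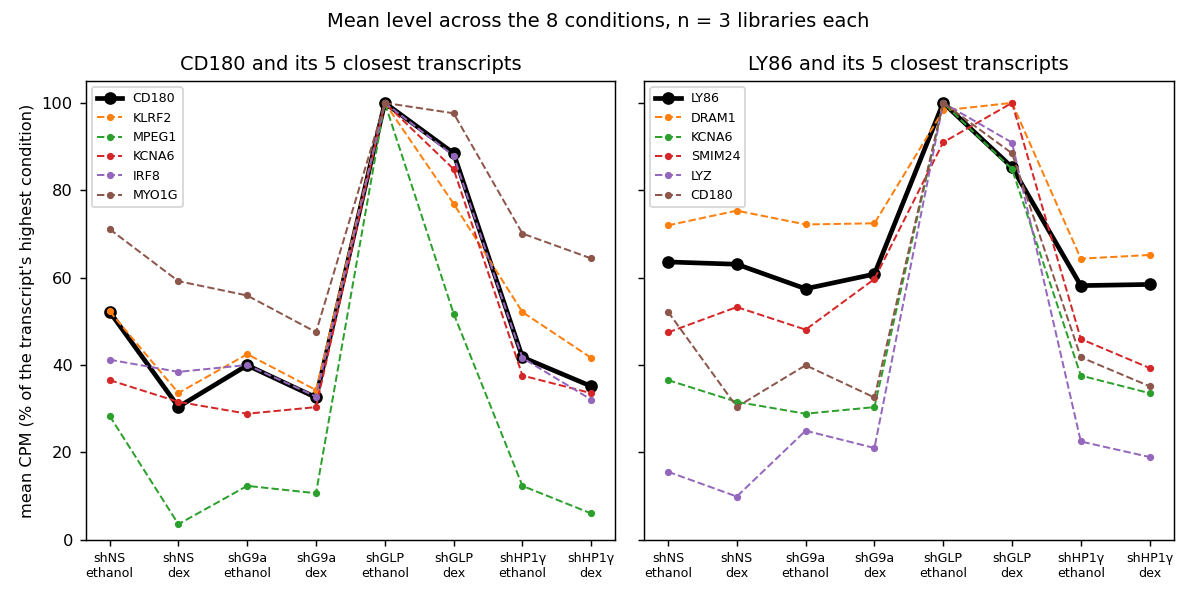
Mean CPM in the 8 conditions (n = 3 libraries each), as a percentage of each transcript's own highest condition, for CD180 and LY86 (black) and the 5 transcripts closest to each (dashed). All are highest in shGLP, and CD180 drops from 52.2% in shNS ethanol to 30.4% in shNS dex while LY86 stays at 63.6% and 63.1%.

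The genomic surroundings of LY86 held a strongly dex-responsive transcript. LY86-AS1 (NR_026970), a long noncoding RNA on the minus strand at chr6:6346698-6623004, overlaps the LY86 gene by 34664 bases, but the annotated exons of the genes share 0 bases. It had 1.79 to 3.82 CPM in shNS ethanol (20 to 44 counts) and 10.9 to 14.4 CPM in shNS dex (135 to 156 counts). LY86-AS1 rose with dex in all 4 populations, with log2 fold changes of 2.37 in shNS (SE 0.23, adjusted p = 3.09e-08), 1.57 in shG9a (SE 0.23, adjusted p = 5.89e-05), 1.96 in shGLP (SE 0.23, adjusted p = 1.59e-06) and 2.45 in shHP1γ (SE 0.24, adjusted p = 9.12e-08, edgeR). Its level in dex was lower with shG9a in 3 of 3 replicates without passing the test (-0.58, SE 0.19, adjusted p = 0.0585). It was not called with shGLP in ethanol or dex (adjusted p = 0.705 and 0.931). Strand use in the counting is not given in the sources used here, so reads from introns or unannotated exons of either gene cannot be assigned to a strand.

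LY86, on the opposite strand, had a fitted dex difference of -0.01 in shNS beside the 2.37 of LY86-AS1. Over the 18 libraries without shGLP the correlation of LY86 with LY86-AS1 was 0.17, and that of CD180 with LY86-AS1 was -0.80, the libraries sharing their dex or ethanol treatment. Around CD180 the nearest gene, MAST4, at 10020 bases, had 7 rows and none reached the filter. MAST4-AS1, the next, was tested and not called in any comparison, with the lowest adjusted p in dex with shG9a (log2 fold change 1.03, SE 0.33, adjusted p = 0.0519, edgeR). The remaining neighbours (TILRLS and ENSG00000286647 near CD180, CNN3P1, ENSG00000261211 and ENSG00000279368 near LY86) have no row in the table.

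The wider pathway was read in 4 lists of 56 other genes: receptors, TLR chaperones, TLR adaptors and kinases, and the B-cell kinases and signaling genes that RP105 uses. Of these, 26 genes with 27 transcripts reached the filter. The last list had 6 of 17 genes tested, without LYN, SYK and BTK (at most 2, 10 and 11 counts in any row and library). The adaptor list had 9 of 20, without MYD88, IRAK1 and TRAF6 (at most 7, 0 and 2). All 6 named genes have 2 or more accessions. The direct counterparts of the RP105 complex were counted low: TLR4 had at most 4 counts in a library, LY96 at most 5, CD14 at most 4 and TLR5 at most 4. TLR4, LY96 and CD14 have 3, 2 and 4 accessions in the table, the class of genes that reached the filter less often, while TLR5 has 1. The receptors that were measurable in shNS ethanol were NRROS (71.4 CPM), a leucine-rich repeat protein related to the TLRs, TLR1 (24.6), TLR9 (19.3), TLR6 (13.9), TLR3 (6.74) and TLR7 (1.16), with LBP, the lipopolysaccharide-binding protein, at 0.354 CPM.

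With dex in shNS, 3 of the 27 transcripts were called and all fell, against 9.88% of all transcripts called and a median log2 fold change of -0.18 against -0.03 over all transcripts. They were TLR6 (-0.61, adjusted p = 0.0108), a receptor that pairs with TLR2, HSP90B1 (-0.43, adjusted p = 4.12e-05), the chaperone gp96 needed for folding of most TLRs, and PLCG2 (-0.51, adjusted p = 0.00115), the phospholipase of the B-cell receptor pathway. TLR6 went from 14.6, 14.1 and 13.1 CPM with ethanol to 9.94, 9.03 and 8.49 CPM with dex, without overlap. In the other populations 3 transcripts fell in shG9a (TLR6, PLCG2 and PIK3R1, a regulatory subunit of PI3-kinase, against 6.18% of all), 1 in shGLP (HSP90B1, against 3.33%) and 0 in shHP1γ, where edgeR gave 4 at an unadjusted p under 0.05, DESeq2 called 1 and 3.21% of all transcripts were called. The count in shNS was 1 to 5 when each replicate was left out, 6 in DESeq2 and 12 with only the groups compared in the fit.

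With shGLP, 4 transcripts were called in ethanol (against 3.59% of all) and 6 in dex (against 5.72%). In dex all 6 rose: CD81 (1.24, adjusted p = 0.000846), a tetraspanin of the B-cell surface, TLR9 (0.97, adjusted p = 0.00399), the receptor for unmethylated CpG DNA, TLR7 (1.28, adjusted p = 0.0414), the receptor for single-stranded RNA, NRROS (0.37, adjusted p = 0.00522), HSP90B1 (0.40, adjusted p = 0.00017) and PLCG2 (0.35, adjusted p = 0.0405). TLR9 stood at 24.4, 23.4 and 26.4 CPM in shGLP dex and at 14.6, 9.72 and 13.7 CPM in shNS dex. These libraries did not overlap, whereas TLR7 rests on 7 to 12 counts in shNS and 13 to 27 in shGLP. In ethanol NRROS (0.30, adjusted p = 0.0351), HSP90B1 (0.25, adjusted p = 0.0254) and PIK3AP1 (0.28, adjusted p = 0.0348), an adaptor for PI3-kinase, rose and TLR6 fell (-0.58, adjusted p = 0.0341), while TLR9 had a value of 0.69 (adjusted p = 0.0517). The list medians were 0.08 in ethanol and 0.22 in dex, against 0.01 and 0.03 over all transcripts. Without replicate 3 the counts were 0 in ethanol and 2 in dex, without replicate 2 that in ethanol was 1, and without the replicate block that in ethanol was 0.

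With shG9a, TLR6 fell and PELI1, a ubiquitin ligase of TLR signaling, rose in both treatments (TLR6 -0.63 and -0.76, adjusted p = 0.021 and 0.00566; PELI1 0.31 and 0.32, adjusted p = 0.0186 and 0.00921, edgeR). In dex PRKCB (1.85, adjusted p = 0.00483), a protein kinase C of B cells, and CD81 (0.83, adjusted p = 0.0177) also rose, which made 2 calls in ethanol (against 3.7% of all transcripts) and 4 in dex (against 8.69%). PRKCB rests on 3 to 8 counts in shNS dex and 13 to 21 in shG9a dex, and every shNS library was under 1 CPM. With shHP1γ, 0 transcripts were called in ethanol (against 2.78% of all, with 5 at an unadjusted p under 0.05 in edgeR, 1 call in DESeq2) and 4 rose in dex (against 4.21% of all): HSP90B1 (0.36, adjusted p = 0.00123), CD81 (0.84, adjusted p = 0.0263), PIK3R1 (0.62, adjusted p = 0.0288) and TLR3 (0.63, adjusted p = 0.0352), the receptor for double-stranded RNA. Leaving out replicates gave 0 to 3 calls with shG9a in ethanol, 0 to 5 in dex and 1 to 4 with shHP1γ in dex. No list transcript was called for an interaction in edgeR or DESeq2, with 3, 2 and 2 at an unadjusted p under 0.05 in edgeR for shG9a, shGLP and shHP1γ. Of all transcripts, 0.0984%, 0.118% and 0.0197% were called for these interactions.

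**Figure D4:**
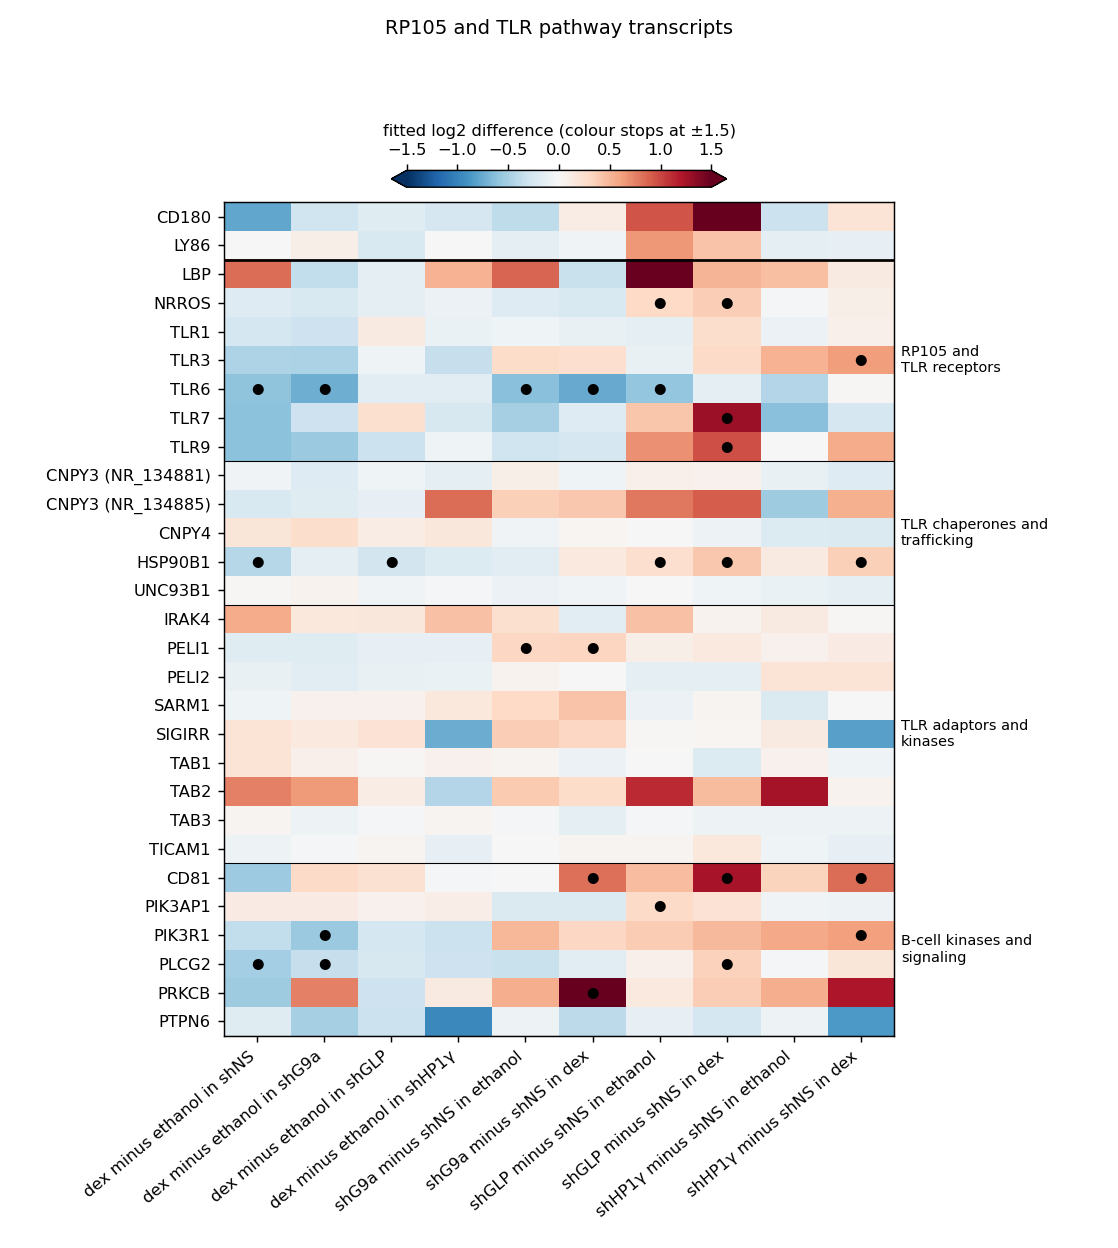
Fitted log2 differences (colour, red higher and blue lower, limited to ±1.5) of CD180, LY86 and the 27 tested pathway transcripts in the 10 comparisons of dex with ethanol and of depleted with shNS cells; black dots mark adjusted p at most 0.05 for list transcripts, and CD180 and LY86 carry no marks. In the column for shGLP in dex CD180 (1.54) has the highest value, above TLR7 (1.28) and CD81 (1.24), and the dots of that column are all on red cells.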

How the data were processed

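RNA-seq was analysed from 24 Nalm6 libraries (8 conditions, 3 replicates each). The authors trimmed paired-end reads, mapped them with HISAT2 to hg19 (GRCh37) and used GenomicAlignments to count them on RefSeq transcripts. The deposited table of counts is named for CPM but holds whole numbers with unequal library totals, and was used as raw counts. It has 64519 rows, 40144 of them at 0 in every library. A second deposited table holds the authors' own fold changes and FDR values, of which none were used. Only its gene symbols were read. Counting mode and strand are not given in the sources used here.

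Counts were fitted in R 4.3.3 with edgeR 4.0.16 (robust quasi-likelihood test, upper-quartile factors, over 1 CPM in at least 2 libraries), in 1 model of the 8 conditions with the replicate number as a block. P values were adjusted by Benjamini-Hochberg over 10167 transcripts, and a call required an adjusted p of at most 0.05. The block entered because the labels place a condition's replicates on different days; that a number marks the same day in every condition is not stated. Deviations from group means of same-numbered libraries had correlations of 0.0051 to 0.588, at most 0.1 in 23 of 84 pairs. Within a condition no library duplicated another (chi-squared per degree of freedom 3.27 to 36.2). Libraries of different conditions were not compared in this way. Alternatives were no block, TMM, DESeq2 1.42.0, no low-count filter, only the groups compared, and each replicate left out. The code was tested on simulated data.

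The members, lists and comparisons were chosen with earlier results of these data known, so none is independent support. Interactions of the members had been planned as tests but are given as values, being built from the differences that chose them. The text names both genes, at most 6 called transcripts per list, receptors by level, the 5 transcripts most correlated with each gene (log2 of CPM + 0.5), 2 annotated neighbours on each side, the depleted genes, FKBP5 and TSC22D3. LY86-AS1, as a neighbour, and list transcripts carry tests in all comparisons. Lengths, spans and exons are from GENCODE on GRCh37. Intervals are at 95%.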

Additional observations from a re-analysis of the deposited data

How the results depend on the processing

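No member's tested difference changed direction where it had been called. Without the replicate block, the CD180 calls for shG9a in ethanol (-0.39) and shHP1γ in ethanol (-0.32) were lost, and the pathway counts were 0 for shG9a in ethanol, 0 for shGLP in ethanol and 2 for shHP1γ in dex. With only the groups compared in the fit, the CD180 value for shHP1γ in ethanol was -0.29 and not called, and the pathway counts were 12 for dex in shNS, 5 for shG9a in ethanol and 0 for shG9a in dex. In DESeq2 the pathway counts were 6 for dex in shNS, 4 for shG9a in ethanol and 1 for shHP1γ in ethanol. Without the low-count filter they were 6 for dex in shNS and 1 for shHP1γ in ethanol. Leaving out each replicate gave CD180 values of -0.42 to -0.31 for shG9a in ethanol and -0.33 to -0.30 for shHP1γ in ethanol. The pathway counts then were 1 to 5 for dex in shNS, 0 to 3 and 0 to 5 for shG9a in ethanol and dex, 0 to 4 and 2 to 7 for shGLP, and 0 and 1 to 4 for shHP1γ. The cause of these changes was not tested, beyond the fewer libraries in the last case. The other 234 values under an alternative stayed on their side of the threshold, within 1.5 times the count, or within the replicate spread. TMM scaling changed no call of a member and gave pathway counts of 4 for dex in shNS, 5 for shGLP in ethanol and 7 for shGLP in dex. At 138 to 999 counts per library, depth limits LY86 more than CD180.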
